A study of Homo sapiens with 16 samples.

Results

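The interferon-stimulated genes described here were 49 genes, found by their symbols in the deposited count table of 26229 genes and followed through all 16 libraries. All 49 had a mean above 10 counts per library and a logCPM (log2 of the average CPM, the counts scaled to library size) above 1, so every member was among the 14673 genes tested. The libraries came from 2 human lines of squamous epithelial origin, the A431 carcinoma line and the HaCaT line of spontaneously immortalised keratinocytes, both grown in DMEM with serum. Each line contributed 1 siCTRL library (a control siRNA), 3 siYAP libraries (knock-down of YAP1), 1 library with an empty expression vector and 3 with YAP5SA, a constitutively active YAP1 mutant. The siRNAs were transfected in 2 rounds 24 hours apart and RNA was taken 48 hours after the second round, while the kind of vector, its promoter and its timing are not given in the sources used here. The siRNA cells carried no vector and the vector cells no siRNA.

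Cells that sense viral or misplaced nucleic acid secrete type I and type III interferons, which bind their receptors on the same and neighbouring cells and activate the kinases JAK1 and TYK2. These phosphorylate transcription factors such as STAT2, which joins IRF9 in a complex that binds the interferon-stimulated response element in the promoters of its target genes. The products block viral entry, degrade viral RNA, halt translation, modify proteins with ISG15 and raise the level of the sensors themselves. Keratinocytes make and answer interferon as part of the barrier function of skin, and nucleic acid introduced into cultured cells can itself induce these genes, so the siCTRL library was compared with the empty vector library before the effect of siYAP was read.

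To show what these genes share in sequence, promoters of RefSeq genes (GRCh38.p14, 250 bases before to 50 bases after each start) were searched for 9 bases of the core of that element, GAAANNGAA, and for its reverse complement, TTCNNTTTC, with overlapping matches counted. Promoters were found for 42 of the 49 genes, and IFIT2, IFITM2, MX2, OAS2, OASL, IRF7 and USP18 were not matched. Of the 42 genes, 29 held the letters in at least 1 promoter (69.0%), against 9.86% of all genes with a promoter in the table. A match describes the sequence and does not show that a factor was bound there. The 180 bases before the start are shown, on the strand of the gene and with matches in capitals, for 6 genes whose control libraries differed widely and for IRF1, whose difference did not pass the test and which held no match. The choice does not show a relation between match and response: 13 genes held no match, and of these all but IRF1 and TRIM25 rose in empty vector against siCTRL, among them XAF1 (3.07), DDX58 (2.72), HERC6 (2.63) and OAS1 (2.34 on the log2 scale).

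IFIT1, chr10:89392443-89392622 (plus strand): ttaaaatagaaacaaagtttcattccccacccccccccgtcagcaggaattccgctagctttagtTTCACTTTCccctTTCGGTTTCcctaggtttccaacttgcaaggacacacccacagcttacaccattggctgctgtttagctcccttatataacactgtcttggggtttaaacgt
IFI6, chr1:27672193-27672372 (minus strand): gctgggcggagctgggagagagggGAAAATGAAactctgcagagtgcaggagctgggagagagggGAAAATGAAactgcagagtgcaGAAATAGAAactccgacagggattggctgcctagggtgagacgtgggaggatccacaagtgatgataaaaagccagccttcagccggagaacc
IFI27, chr14:94110556-94110735 (plus strand): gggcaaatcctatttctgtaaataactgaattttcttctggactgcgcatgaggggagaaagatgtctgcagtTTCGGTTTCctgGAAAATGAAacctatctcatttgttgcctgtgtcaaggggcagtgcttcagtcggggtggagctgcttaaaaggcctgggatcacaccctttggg
IFI44L, chr1:78620268-78620447 (plus strand): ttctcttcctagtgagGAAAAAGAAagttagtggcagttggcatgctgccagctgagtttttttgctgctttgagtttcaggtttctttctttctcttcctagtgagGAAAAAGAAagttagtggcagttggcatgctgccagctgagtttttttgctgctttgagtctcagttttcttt
RSAD2, chr2:6865705-6865884 (plus strand): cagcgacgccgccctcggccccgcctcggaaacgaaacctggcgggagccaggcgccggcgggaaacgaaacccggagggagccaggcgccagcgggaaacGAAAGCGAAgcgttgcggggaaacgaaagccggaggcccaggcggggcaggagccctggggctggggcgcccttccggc
ISG15, chr1:1013317-1013496 (plus strand): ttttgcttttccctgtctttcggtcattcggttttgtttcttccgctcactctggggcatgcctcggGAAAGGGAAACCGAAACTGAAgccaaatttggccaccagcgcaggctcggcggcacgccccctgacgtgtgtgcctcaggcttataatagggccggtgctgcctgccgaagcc
IRF1, chr5:132490774-132490953 (minus strand): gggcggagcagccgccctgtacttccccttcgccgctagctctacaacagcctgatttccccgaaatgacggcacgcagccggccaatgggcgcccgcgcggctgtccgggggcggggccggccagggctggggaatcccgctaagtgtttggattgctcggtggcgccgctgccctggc

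Counted from the start site, the first bases of the matches lay at -115 and -102 in IFIT1, at -156, -115 and -93 in IFI6, at -107 and -95 in IFI27, at -164 and -73 in IFI44L and at -79 in RSAD2. In ISG15 the matches at -113, -107 and -101 overlapped in 1 run.

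Assigned read pairs per library ranged from 18115624 to 46791673 with a median of 26622174, and levels are given as CPM (library-scaled counts, with TMM factors), where 3 counts correspond to 0.063 to 0.164 CPM depending on the library. YAP1 was at 94.3 CPM in A431 siCTRL and at 5.04 to 7 CPM in siYAP, at 124 CPM with empty vector and at 1500 to 3250 CPM with YAP5SA, and in HaCaT at 254 CPM, 21.6 to 23.2 CPM, 423 CPM and 7550 to 22300 CPM in the same order, so each library followed its label. EGFR, for which A431 is known, was at 750 to 1360 CPM in A431 and 298 to 557 CPM in HaCaT, and all 5 keratinocyte markers (KRT5, KRT14, KRT17, TP63 and CDH1) were expressed in all 16 libraries. Their sum was 2210 to 2950 CPM in the siRNA and 2900 to 3850 CPM in the vector libraries of A431, which overlapped. In HaCaT it was 1530 to 2180 CPM and 3050 to 5560 CPM. Single markers did not all move with the sum. KRT5 was higher in every vector library than in any siRNA library of its line, as were KRT14 and KRT17 in HaCaT. The arms overlapped for TP63 and CDH1 in both lines and for KRT14 and KRT17 in A431. The first YAP5SA library of A431 stood apart from the other two, with a chi-square of the counts per degree of freedom of 67.4 and 72.9 against 6.4 between the others, and the HaCaT YAP5SA libraries all differed from each other by 65.7 to 134, where siYAP replicates differed by 12.8 to 24.9. Comparisons of YAP5SA with empty vector are therefore also given without replicate 1 of YAP5SA in A431. They are also given without replicate 1 in HaCaT, whose removal moved the HaCaT count of members most. That HaCaT replicate was not the one furthest apart. Replicates 1 and 3 differed least, by 65.7, and replicate 2 differed from them by 134 and 99.8.

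The siCTRL and empty vector libraries of the same line differed, and the higher level was in the vector arm and not in the siRNA arm. In A431 28 of the 49 genes were higher with empty vector by at least 1 on the log2 scale and 0 were lower by as much, with a median difference of 1.10 (2.15-fold), where 6.69% of all tested genes were higher and 3.87% lower. In HaCaT 43 genes were higher and 1, IFITM2, was lower, with a median of 3.06 (8.33-fold), where 16.9% of all tested genes were higher and 21.4% lower. The median difference over all tested genes was 0 in A431 and -0.031 in HaCaT. These are differences between single libraries with no replicate check. For 45 of the 49 genes the difference was larger in HaCaT than in A431, and the exceptions were STAT2, IRF1, IRF7 and IFITM2. The share of all genes is not given for this count. By the percentages above, control differences of all tested genes were also wider in HaCaT, in both directions.

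**Figure D1:**
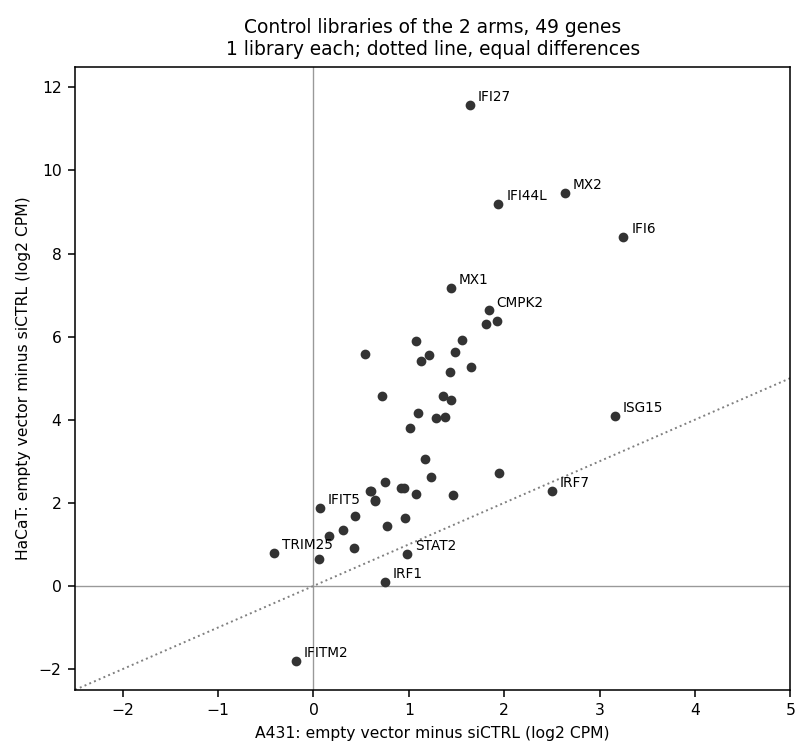
Difference between the empty vector and siCTRL libraries (log2 CPM) of each of the 49 genes in A431 (horizontal axis) and HaCaT (vertical axis), 1 library per control. Nearly all points lie to the right of 0 and above the dotted line of equal differences, with IFI27 highest at 11.58 in HaCaT and IFITM2 lowest at -1.80.

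The treated libraries allowed the control difference to be tested, since the 4 triplicates give a spread that the single controls are assumed to share. Over both lines, 46 genes rose and 1 fell in empty vector against siCTRL by the quasi-likelihood test of edgeR at an adjusted p under 0.05 and a logCPM above 1, a rule that called 29% of all tested genes. The median log2 fold change was 2.41 over the 49 genes and -0.0171 over all genes tested. IRF1 (log2 fold change 0.42, SE 0.21, adjusted p = 0.152) and TRIM25 (0.19, SE 0.24, adjusted p = 0.582) did not pass. The single gene that fell was IFITM2 at -0.99 (SE 0.35, adjusted p = 0.0478), and that call was lost in 8 of the 12 fits that left out 1 treated library (any siYAP library, or replicate 3 of YAP5SA in either line).

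The YAP5SA libraries stood beside the empty vector library and the siYAP libraries beside siCTRL. In A431 all 4 vector libraries lay above all 4 siRNA libraries for 40 of the 49 genes, against 15.2% of all tested genes, and in HaCaT for 47 genes, against 26.7%. The 40 genes of A431 were all among the 47 of HaCaT. The arms overlapped in A431 for IFIH1, IRF1, IFIT2, IFIT5, IFITM2, HERC5, TRIM25, ISG20 and LGALS3BP and in HaCaT for IRF1 and IFITM2. Without the first YAP5SA library of each line the counts were again 40 and 47, so no member overlapped because of that library alone. Leaving out a library can only keep or raise such a count, so this does not test the separation. The share of all genes is not given for it. Together the 49 genes took 0.668% to 0.831% of all counts in the A431 siRNA libraries and 1.28% to 1.55% in the A431 vector libraries, and 0.341% to 0.373% and 1.86% to 2.31% in HaCaT. What was transfected and anything else that set the cultures of the arms apart cannot be told apart here.

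**Figure D2:**
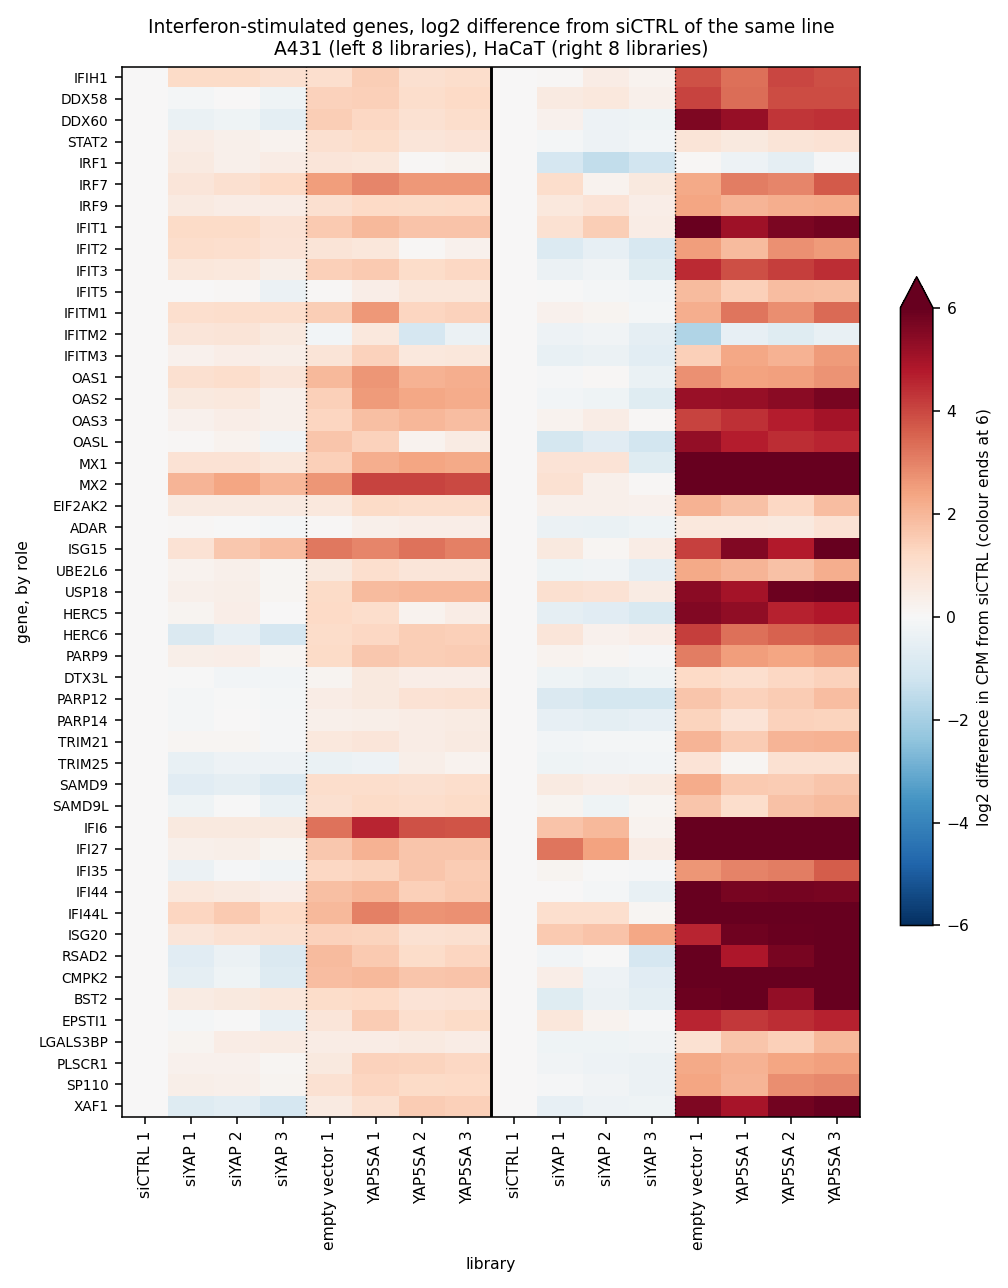
Each of the 49 genes (rows, by role) in each of the 16 libraries (columns, 8 of A431 and then 8 of HaCaT), coloured by its log2 difference in CPM from the siCTRL library of the same line. The medians over the genes run from 0.18 to 0.36 in A431 siYAP, from 1.07 to 1.35 in the A431 vector libraries, from -0.19 to 0.04 in HaCaT siYAP and from 3.06 to 3.68 in the HaCaT vector libraries.

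Other genes differed between the arms as well. In the comparison of YAP5SA with siYAP, 42 of the 49 genes passed in A431, 40 higher and 2 lower (IFIT2 and IFITM2), with a median of 0.947, where 34.6% of all genes passed. Both lower calls were lost without any 1 of the A431 siYAP libraries and without replicate 2 or 3 of A431 YAP5SA. In HaCaT 48 passed, all higher and with a median of 3.18, where 60% of all genes passed. IFITM2 was the member that did not pass in HaCaT. DCN, a matrix proteoglycan gene of fibroblasts, was at 11.3 to 14.2 CPM in the 4 HaCaT siRNA libraries and at 0 to 0.0765 CPM in the 4 HaCaT vector libraries. Of the other fibroblast markers in the HaCaT siRNA libraries, COL1A2 was at 0, PDGFRB at 0 to 0.194 CPM and COL1A1 at 1.69 to 5.69 CPM. The 5 leukocyte markers PTPRC, CD3E, CD14, LYZ and ITGAM summed to 2.89 to 7.19 CPM in A431 siRNA, 3.95 to 5.69 CPM in A431 vector, 4.62 to 5.79 CPM in HaCaT siRNA and 1.05 to 2.9 CPM in HaCaT vector libraries. The defining marker PTPRC reached 0.255 CPM at most. In RNA from whole cultures fewer cells of a kind and less RNA per cell cannot be told apart, and a part of these markers in the result was not tested.

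Among the RNA sensors, which recognise foreign RNA and start interferon production, all 3 rose in empty vector against siCTRL over both lines, by 2.41 (IFIH1) to 3.55 (DDX60) on the log2 scale. IFIH1, which encodes MDA5, was in A431 at 42.2 CPM in siCTRL, 94.4, 92.7 and 81.2 CPM in siYAP, 85.2 CPM with empty vector and 116, 82.6 and 88.6 CPM with YAP5SA. HaCaT IFIH1 was at 22.2 CPM in siCTRL, 23.3, 29.7 and 25.6 CPM in siYAP, 310 CPM with empty vector and 219, 357 and 324 CPM with YAP5SA. In A431 the siCTRL library alone was low and siYAP overlapped the vector libraries, while in HaCaT the vector libraries were all far above the rest.

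Of the 4 transcription factors 3 rose over both lines. STAT2, which carries the signal of the interferon receptors to the nucleus, was in A431 at 86.6 CPM in siCTRL, 120, 106 and 101 CPM in siYAP, 171 CPM with empty vector and 185, 141 and 152 CPM with YAP5SA. HaCaT STAT2 was at 119 CPM in siCTRL, 109, 96.3 and 106 CPM in siYAP, 206 CPM with empty vector and 180, 205 and 218 CPM with YAP5SA. Both lines kept the arms apart, with a fold change of 0.88 on the log2 scale (SE 0.15, adjusted p = 0.000695 by edgeR). IRF9, the DNA-binding part of the complex, was in A431 at 37.4 CPM in siCTRL, 54.9, 51.1 and 51.2 CPM in siYAP, 72.1 CPM with empty vector and 86.6, 81.7 and 84.7 CPM with YAP5SA. HaCaT IRF9 was at 24.5 CPM in siCTRL, 38.1, 43 and 32.2 CPM in siYAP, 125 CPM with empty vector and 101, 111 and 117 CPM with YAP5SA. Its log2 fold change in empty vector against siCTRL was 1.65 (SE 0.14), with siYAP between siCTRL and the vector libraries in both lines. IRF7, the factor that amplifies interferon production, was in A431 at 2.64 CPM in siCTRL, 4.48, 5.21 and 6.19 CPM in siYAP, 15.3 CPM with empty vector and 20.4, 16.6 and 16.5 CPM with YAP5SA. HaCaT IRF7 was at 3.55 CPM in siCTRL, 7.43, 4.08 and 5.45 CPM in siYAP, 17.5 CPM with empty vector and 30.1, 27.5 and 46.5 CPM with YAP5SA. It rose by 2.41 on the log2 scale (SE 0.32) and was among the 4 members whose control difference was not larger in HaCaT. IRF1, which interferon gamma and other cytokines also induce, was in A431 at 89 CPM in siCTRL, 128, 109 and 120 CPM in siYAP, 149 CPM with empty vector and 144, 94.6 and 99.8 CPM with YAP5SA. HaCaT IRF1 was at 94.8 CPM in siCTRL, 47.9, 33.9 and 42.9 CPM in siYAP, 101 CPM with empty vector and 77.3, 65.8 and 90.4 CPM with YAP5SA. Its arms overlapped in both lines, and the HaCaT siYAP libraries were the lowest.

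**Figure D3:**
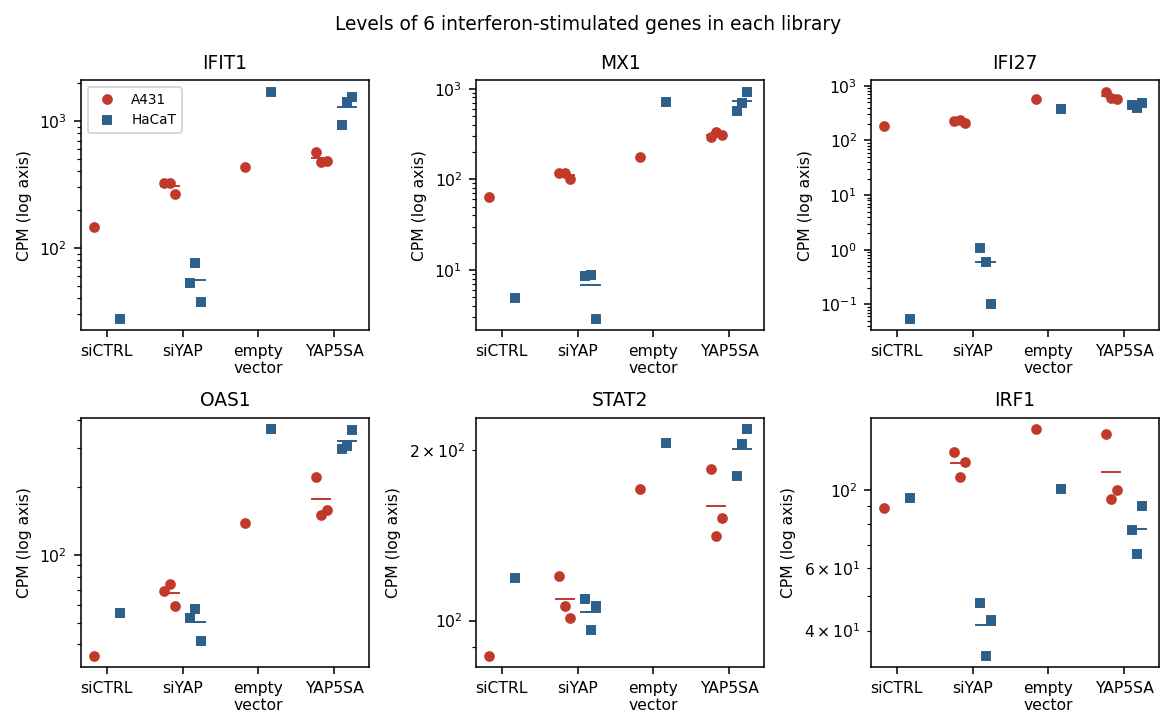
Levels (CPM, log axis) of IFIT1, MX1, IFI27, OAS1, STAT2 and IRF1 in every library, with A431 as circles, HaCaT as squares and short lines for the means of triplicates. HaCaT siRNA libraries hold the lowest IFIT1, MX1 and IFI27 levels, and for IRF1 the arms overlap in both lines.

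The IFIT genes, whose products bind viral RNA and stop its translation, all 4 rose over both lines, by 0.97 (IFIT5) to 3.75 (IFIT1) on the log2 scale. IFIT1 in A431 was at 146 CPM in siCTRL, 324, 325 and 266 CPM in siYAP, 432 CPM with empty vector and 570, 473 and 482 CPM with YAP5SA. HaCaT IFIT1 was at 27.7 CPM in siCTRL, 52.9, 76 and 37.2 CPM in siYAP, 1700 CPM with empty vector and 933, 1400 and 1540 CPM with YAP5SA. The groups of A431 formed steps, with siCTRL lowest, siYAP next and the vector libraries highest, whereas in HaCaT the siRNA libraries lay between 27.7 and 76 CPM and the vector libraries between 933 and 1700 CPM. Of the IFITM genes, which block fusion of viruses with the cell membrane, IFITM1 and IFITM3 rose by 1.82 and 1.10 and IFITM2 fell. IFITM3 in A431 was at 225 CPM in siCTRL, 270, 295 and 291 CPM in siYAP, 383 CPM with empty vector and 589, 355 and 357 CPM with YAP5SA. HaCaT IFITM3 was at 104 CPM in siCTRL, 75.5, 81.2 and 67.8 CPM in siYAP, 281 CPM with empty vector and 520, 436 and 603 CPM with YAP5SA. The IFITM genes are near-identical copies and reads shared between them were divided by estimation, so the opposite direction of IFITM2 is uncertain.

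The OAS family, whose OAS1, OAS2 and OAS3 sense double-stranded RNA and activate RNase L while OASL lacks that enzyme activity, had 4 members that all rose, by 2.34 (OAS1) to 3.46 (OASL) on the log2 scale. OAS1 in A431 was at 35.5 CPM in siCTRL, 68.9, 74.4 and 59.2 CPM in siYAP, 138 CPM with empty vector and 222, 150 and 159 CPM with YAP5SA. HaCaT OAS1 was at 55.1 CPM in siCTRL, 52.5, 57.2 and 41.5 CPM in siYAP, 363 CPM with empty vector and 297, 304 and 359 CPM with YAP5SA. It was at similar levels in the siRNA libraries of both lines, with 35.5 to 74.4 CPM in A431 and 41.5 to 57.2 CPM in HaCaT. OAS3 in A431 was at 111 CPM in siCTRL, 130, 144 and 135 CPM in siYAP, 268 CPM with empty vector and 389, 436 and 398 CPM with YAP5SA. HaCaT OAS3 was at 31.2 CPM in siCTRL, 36.5, 42.8 and 33.3 CPM in siYAP, 518 CPM with empty vector and 647, 808 and 981 CPM with YAP5SA. All 3 YAP5SA libraries of each line lay above its empty vector library.

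MX1 and MX2 encode GTPases that trap viral components, and both were among the widest differences. MX1 in A431 was at 64.4 CPM in siCTRL, 116, 117 and 102 CPM in siYAP, 175 CPM with empty vector and 293, 332 and 307 CPM with YAP5SA. HaCaT MX1 was at 4.86 CPM in siCTRL, 8.64, 8.75 and 2.91 CPM in siYAP, 716 CPM with empty vector and 563, 698 and 928 CPM with YAP5SA. The A431 control libraries differed 2.72-fold and those of HaCaT 145-fold. MX2 in A431 was at 3.43 CPM in siCTRL, 14.3, 18 and 13.9 CPM in siYAP, 21.7 CPM with empty vector and 58.8, 58.6 and 53.9 CPM with YAP5SA. HaCaT MX2 was at 0.219 CPM in siCTRL, 0.465, 0.292 and 0.231 CPM in siYAP, 202 CPM with empty vector and 209, 223 and 321 CPM with YAP5SA. In A431 MX2 rose in steps from siCTRL through siYAP and empty vector to YAP5SA with no overlap between groups, and in HaCaT, where siCTRL held 4 counts, the control libraries differed 701-fold with a prior count of 2. The sensors and editors of double-stranded RNA inside the cell, EIF2AK2 (PKR) and ADAR, rose by 1.35 and 0.35 over both lines, and the latter was the smallest rise among the 46.

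All 5 genes of the ISG15 system rose, from 1.44 for the conjugating enzyme UBE2L6 to 3.66 for ISG15 itself, a ubiquitin-like modifier. ISG15 in A431 was at 5.39 CPM in siCTRL, 10, 16.8 and 19.8 CPM in siYAP, 48.9 CPM with empty vector and 41, 52.9 and 44.3 CPM with YAP5SA. HaCaT ISG15 was at 1.8 CPM in siCTRL, 2.75, 1.94 and 2.51 CPM in siYAP, 31.9 CPM with empty vector and 87.4, 51.4 and 174 CPM with YAP5SA. The replicates of ISG15 varied more than those of any other member in A431 siYAP and HaCaT YAP5SA, with ranges of 0.98 and 1.76 on the log2 scale, and the vector libraries lay above all siRNA libraries in both lines. HERC6, a relative of the ISG15 ligase HERC5, was in A431 at 51.6 CPM in siCTRL, 28.3, 36.2 and 25.5 CPM in siYAP, 111 CPM with empty vector and 121, 145 and 138 CPM with YAP5SA. HaCaT HERC6 was at 11.2 CPM in siCTRL, 18.4, 13.5 and 14.7 CPM in siYAP, 200 CPM with empty vector and 112, 130 and 145 CPM with YAP5SA. In A431 the siYAP libraries lay below siCTRL, the reverse of most members.

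The PARP genes and DTX3L, the ubiquitin ligase that pairs with PARP9, all rose, by 0.67 (DTX3L) to 2.11 (PARP9). PARP9 in A431 was at 101 CPM in siCTRL, 131, 135 and 110 CPM in siYAP, 227 CPM with empty vector and 315, 285 and 287 CPM with YAP5SA. HaCaT PARP9 was at 68 CPM in siCTRL, 78.4, 74.6 and 65.7 CPM in siYAP, 566 CPM with empty vector and 388, 352 and 402 CPM with YAP5SA. PARP12, which can arrest translation, was in A431 at 41.9 CPM in siCTRL, 39.2, 40.6 and 38.3 CPM in siYAP, 56.9 CPM with empty vector and 63.2, 76.8 and 79.7 CPM with YAP5SA. HaCaT PARP12 was at 34.6 CPM in siCTRL, 18.8, 16.4 and 16.8 CPM in siYAP, 111 CPM with empty vector and 91.1, 99.7 and 127 CPM with YAP5SA, so all siYAP libraries were below siCTRL in both lines, by more in HaCaT. TRIM21, an intracellular antibody receptor, rose by 1.34, and TRIM25, which ubiquitinates RIG-I (DDX58), did not pass. SAMD9L and SAMD9, restriction factors for poxviruses, rose by 1.30 and 1.65. SAMD9 in A431 was at 467 CPM in siCTRL, 296, 323 and 264 CPM in siYAP, 980 CPM with empty vector and 985, 909 and 986 CPM with YAP5SA. HaCaT SAMD9 was at 638 CPM in siCTRL, 939, 841 and 886 CPM in siYAP, 2980 CPM with empty vector and 1880, 1850 and 2000 CPM with YAP5SA. The siYAP libraries of A431 lay below siCTRL and those of HaCaT above it.

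All 14 remaining effectors rose, by 0.67 (LGALS3BP) to 7.15 (IFI27) on the log2 scale. IFI27, a small mitochondrial protein gene, was in A431 at 185 CPM in siCTRL, 232, 233 and 209 CPM in siYAP, 576 CPM with empty vector and 786, 589 and 583 CPM with YAP5SA. HaCaT IFI27 was at 0.0546 CPM in siCTRL, 1.08, 0.583 and 0.0992 CPM in siYAP, 380 CPM with empty vector and 453, 388 and 493 CPM with YAP5SA. The HaCaT siCTRL library held 1 count of IFI27 and the empty vector library 11919, a ratio of 6950 with an exact 95% interval of 1250 to 274000 that covers counting error only, while A431 already held 185 CPM in siCTRL. Fitted fold changes of IFI27 that involve the HaCaT siRNA libraries rest on 1, 28, 12 and 3 counts. IFI6, which protects the endoplasmic reticulum from flaviviruses, was in A431 at 25 CPM in siCTRL, 37.5, 37.8 and 38.1 CPM in siYAP, 238 CPM with empty vector and 599, 355 and 341 CPM with YAP5SA. HaCaT IFI6 was at 1.64 CPM in siCTRL, 5.46, 6.61 and 1.88 CPM in siYAP, 578 CPM with empty vector and 593, 534 and 720 CPM with YAP5SA. It had the largest control difference of any member in A431, at 3.25 on the log2 scale (9.52-fold).

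IFI44 and IFI44L are neighbouring, related genes of unsettled function. IFI44 in A431 was at 142 CPM in siCTRL, 220, 205 and 186 CPM in siYAP, 501 CPM with empty vector and 562, 385 and 426 CPM with YAP5SA. HaCaT IFI44 was at 8.9 CPM in siCTRL, 9.14, 8.12 and 6.45 CPM in siYAP, 713 CPM with empty vector and 471, 475 and 466 CPM with YAP5SA. IFI44L in A431 was at 37.8 CPM in siCTRL, 91.6, 112 and 85.8 CPM in siYAP, 145 CPM with empty vector and 306, 242 and 253 CPM with YAP5SA. HaCaT IFI44L was at 0.328 CPM in siCTRL, 0.736, 0.729 and 0.364 CPM in siYAP, 234 CPM with empty vector and 206, 208 and 271 CPM with YAP5SA, below 1 CPM in every siRNA library. RSAD2, or viperin, makes a nucleotide that ends viral RNA chains, and CMPK2 is its neighbour in the genome. RSAD2 in A431 was at 101 CPM in siCTRL, 63.1, 79.7 and 55.6 CPM in siYAP, 379 CPM with empty vector and 300, 214 and 246 CPM with YAP5SA. HaCaT RSAD2 was at 7.81 CPM in siCTRL, 6.93, 7.73 and 3.8 CPM in siYAP, 650 CPM with empty vector and 226, 404 and 492 CPM with YAP5SA. CMPK2 in A431 was at 32.8 CPM in siCTRL, 22.5, 27 and 19.1 CPM in siYAP, 118 CPM with empty vector and 127, 104 and 109 CPM with YAP5SA. HaCaT CMPK2 was at 1.09 CPM in siCTRL, 1.47, 0.875 and 0.661 CPM in siYAP, 115 CPM with empty vector and 94.3, 122 and 167 CPM with YAP5SA. Both genes were lower in all 3 A431 siYAP libraries than in siCTRL and highest in the vector arm of both lines.

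ISG20, an exonuclease of viral RNA, was in A431 at 4.31 CPM in siCTRL, 7.1, 8.14 and 8.54 CPM in siYAP, 11.2 CPM with empty vector and 10.9, 8.09 and 8.56 CPM with YAP5SA. HaCaT ISG20 was at 0.219 CPM in siCTRL, 0.774, 0.875 and 1.39 CPM in siYAP, 6.75 CPM with empty vector and 16.4, 17.3 and 22.2 CPM with YAP5SA. LGALS3BP, a secreted galectin-binding glycoprotein, was in A431 at 287 CPM in siCTRL, 316, 393 and 408 CPM in siYAP, 385 CPM with empty vector and 387, 411 and 385 CPM with YAP5SA. Its A431 arms overlapped. HaCaT LGALS3BP was at 95.4 CPM in siCTRL, 80.3, 80.7 and 81.7 CPM in siYAP, 179 CPM with empty vector and 306, 257 and 370 CPM with YAP5SA. In HaCaT both genes were higher in all 3 YAP5SA libraries than with empty vector.

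Against this background the effect of siYAP was read only within the siRNA arm. In A431 6 of the 49 genes passed in siYAP against siCTRL, where 5.6% of all genes passed. MX2 rose by 2.17 on the log2 scale (SE 0.30, adjusted p = 0.00202 by edgeR), IFI44L by 1.35 (SE 0.24), IFIH1 by 1.08 (SE 0.27) and OAS1 by 0.93 (SE 0.24), and HERC6 and SAMD9 fell by 0.78 (SE 0.21) and 0.67 (SE 0.14). The median over the 49 genes was 0.304, against 0.029 over all genes tested, and all 3 siYAP libraries lay above siCTRL for 31 members and below it for 12. The share of all genes on each side is not given here or below. Without replicate 1 of A431 siYAP 3 members passed, beside 433 of 14593 genes, where the main fit called 821 of 14673. Without replicate 3 of A431 siYAP 2 members passed, and the count over all genes was lower still. The loss of calls was therefore not particular to the members.

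In HaCaT 4 genes passed, where 5.67% of all genes did. ISG20 rose by 2.21 (SE 0.57, adjusted p = 0.0386) and IRF9 by 0.62 (SE 0.16, adjusted p = 0.0397), and IRF1 and PARP12 fell by 1.19 (SE 0.23, adjusted p = 0.0101) and 1 (SE 0.18, adjusted p = 0.00652). The median was -0.124, with all 3 siYAP libraries above siCTRL for 16 members and below it for 23. ISG20 had 4 counts in siCTRL. With HaCaT fitted alone both rises were lost, and 3 members passed, all lower, beside 349 of 14488 genes. Without replicate 2 or 3 of A431 siYAP or replicate 3 of A431 YAP5SA, 2 members passed, both as lower, beside 653 to 682 genes in all. These libraries all enter the shared estimate of the spread. IFI27 had the largest fitted difference, 3.28 (SE 1.52, adjusted p = 0.245), which depends on the 1 count in siCTRL.

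Over both lines 7 genes passed, where 13% of all genes did. IFIT1, IFI44L, MX2, ISG20, IRF9 and IFIH1 rose, by 0.55 (IRF9) to 1.54 (ISG20), and PARP12 fell by 0.54. The median over the 49 genes was 0.0699. Without the first HaCaT YAP5SA library 11 members passed, beside 2386 of 14658 genes. All comparisons with siCTRL share its single library in each line, so 1 low or high control value enters every one of them. When siYAP was set against siCTRL and the empty vector library together, as 2 controls, 45 members were lower in HaCaT and 0 were higher. That fit called 5870 of all 14673 genes. The empty vector library is from the other arm, so this count carries the difference between the arms and does not measure the knock-down.

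The effect of siYAP itself differed between the lines for 1 of the 49 genes, where 0.17% of all genes differed. SAMD9 fell in A431 by 0.67 and was 0.48 higher in HaCaT (SE 0.14, adjusted p = 0.0717), a difference of -1.14 (SE 0.20, adjusted p = 0.0493 by edgeR). That call was lost with RLE factors, with no count filter and in 9 of the 12 fits that left out 1 treated library (each siYAP library, replicates 2 and 3 of A431 YAP5SA and replicate 3 of HaCaT YAP5SA), and was held with DESeq2. IRF1 moved in opposite directions, 0.42 in A431 and -1.19 in HaCaT, but its difference of 1.61 (SE 0.35, adjusted p = 0.0923) did not pass.

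YAP5SA was compared with the empty vector library. In A431 0 of the 49 genes passed with edgeR, where 0% of all genes did. Even YAP1 did not pass (log2 fold change 4.36, SE 0.65, adjusted p = 0.197 by edgeR), so this count does not show that the members were unchanged. An unadjusted p under 0.05 was found for 12 members, beside 828 of 14673 genes. By DESeq2, 1 member, MX2, passed (log2 fold change 1.38, adjusted p = 0.000391), beside 3 of 14673 genes. The largest edgeR value was that of MX2, 1.39 (SE 0.25, adjusted p = 0.474), and the median was 0.225. Without the first YAP5SA library 2 members passed, MX2 as higher and OASL as lower, where 0.592% of all genes did.

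In HaCaT 6 genes passed, where 13.6% of all genes did. ISG20 rose by 1.46 (SE 0.31, adjusted p = 0.0122), IFITM3 by 0.89 (SE 0.27), LGALS3BP by 0.80 (SE 0.19) and OAS3 by 0.65 (SE 0.20), and SAMD9 and PARP9 fell by 0.64 (SE 0.13) and 0.57 (SE 0.14). The OAS3 call was lost in 11 of 19 alternative fits and the IFITM3 call in 6 of 19. Those of ISG20, LGALS3BP and PARP9 were lost in 1 each. With 2 controls PARP9 and SAMD9 turned in direction. The median was -0.033, and all 3 YAP5SA libraries lay above empty vector for 12 members, below it for 17 and on both sides for 20. Without the first HaCaT YAP5SA library 13 members passed, 9 higher and 4 lower, where 19.9% of all genes did. The 13 were IFI35, IFITM3, IRF7, ISG15, ISG20, LGALS3BP, OAS3, SP110 and USP18 as higher and DDX60, HERC5, PARP9 and SAMD9 as lower. Without the first A431 YAP5SA library 12 passed in HaCaT, 6 higher and 6 lower, beside 2595 of 14707 genes. Without the second or the third HaCaT YAP5SA library 9 and 4 passed, beside 2188 of 14649 and 1143 of 14658 genes.

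Over both lines MX2 (0.85, SE 0.17, adjusted p = 0.03) and OAS3 (0.63, SE 0.14, adjusted p = 0.0442) rose, where 2.04% of all genes passed. Without the first YAP5SA library of A431 or of HaCaT 8 and 10 members passed, beside 1220 of 14707 and 1367 of 14658 genes tested, and without replicate 2 or 3 of A431 YAP5SA 0 did, beside 63 and 48 genes. Leaving out 1 siYAP library or the third of HaCaT YAP5SA left 1, beside 105 to 173 genes in all. The effect of YAP5SA differed between the lines for 0 of the 49 genes with edgeR, where 0.0886% of all genes differed. By DESeq2 it differed for 5 members, beside 929 of 14673 genes. An unadjusted p under 0.05 in edgeR was found for 11 members, beside 3280 of 14673 genes. Without the first A431 or the second HaCaT YAP5SA library 5 members differed, beside 873 and 497 genes in all, and without the first HaCaT YAP5SA library 2 did, beside 610. The differences nearest to passing were those of PARP9, 0.95 (SE 0.21, adjusted p = 0.0589), and ISG20, -1.75 (SE 0.42, adjusted p = 0.0621).

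The lines differed in the level of these genes, and the direction depended on the arm. Over all 4 conditions 39 genes differed, 27 higher in A431 and 12 lower, where 60.6% of all genes did. In comparisons chosen after seeing the data, the arms were then taken separately. In the siRNA libraries 38 genes were higher in A431 and 3 were lower (IFITM2, SAMD9 and SAMD9L), with a median of 1.47, where 57% of all genes differed. In the vector libraries 6 were higher (BST2, DDX60, HERC5, IFI27, IRF1 and LGALS3BP) and 32 lower, with a median of -0.746, where 53.6% of all genes differed.

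IFI27 was higher in A431 by 10.12 on the log2 scale (SE 0.48) in the siRNA libraries and by 0.58 (SE 0.24) in the vector libraries. MX2 turned from 4.74 (SE 0.31) to -2.68 (SE 0.18), MX1 from 3.90 (SE 0.35) to -1.63 (SE 0.28) and IFIT1 from 2.43 (SE 0.25) to -1.66 (SE 0.24), all passing the test in both arms. IFI44L, 7.08 (SE 0.27) in the siRNA libraries, was at -0.23 (SE 0.15, adjusted p = 0.207) in the vector libraries. The change between these averages was not itself tested. A related quantity from the treated triplicates alone, which also sets active YAP1 against its knock-down, was the difference of YAP5SA minus siYAP between the lines, and it passed for 44 of the 49 genes, where 40.2% of all genes passed. It was negative for 43, meaning a larger difference in HaCaT, and positive for SAMD9, with a median of -2.19.

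**Figure D4:**
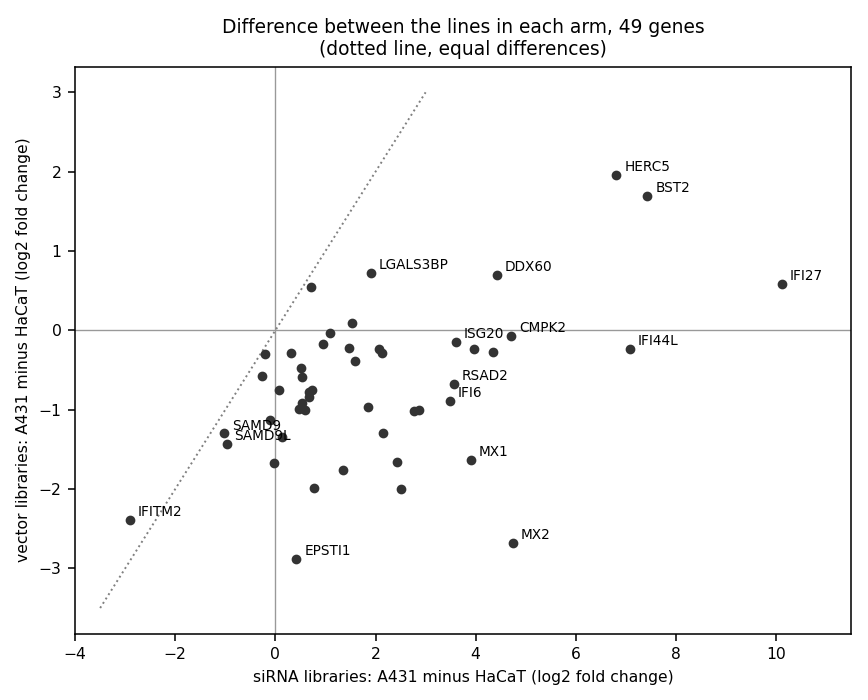
Log2 fold change between A431 and HaCaT of the 49 genes in the siRNA libraries (horizontal axis) and in the vector libraries (vertical axis). Most points lie right of 0 and below 0, and the widest are IFI27 at 10.12 and 0.58 and MX2 at 4.74 and -2.68.

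The rest of the pathway was taken from a list of 31 genes, of which 25 were tested. In empty vector against siCTRL over both lines 5 rose and 4 fell, where 29% of all genes passed, with a median of 0.0487. Among the rises, DHX58, a regulator of RNA sensing, was higher by 2.31 (SE 0.23), the kinase JAK2 by 1.02 (SE 0.24), the feedback inhibitor SOCS3 by 0.95 (SE 0.29) and MB21D1, the DNA sensor cGAS, by 0.92 (SE 0.23). MAVS, the mitochondrial adaptor of the RNA sensors, fell by 1.44 (SE 0.13), the receptor chains IFNLR1 and IFNAR1 by 0.45 (SE 0.14) and 0.42 (SE 0.11), and JAK1 by 0.43 (SE 0.13). The share that passed was near that of all genes, and nothing particular to the list is read from it.

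The interferon genes themselves were near the detection limit. IFNB1, the first type I interferon made by most cells, was in HaCaT at 1.34 CPM with empty vector and 0.333, 2.18 and 1.05 CPM with YAP5SA, against 0.0546 CPM in siCTRL and 0 in siYAP, and in A431 at 0 to 0.167 CPM in all libraries. IFNL1, a type III interferon, was in HaCaT at 0.35 CPM with empty vector and 1.13 to 2.1 CPM with YAP5SA and at 0 in all siRNA libraries. A431 IFNL1 was at 0.049 CPM in siCTRL, 0.736 to 1.7 CPM in siYAP, 0.827 CPM with empty vector and 0.286 to 0.473 CPM with YAP5SA, so siYAP was not below the vector arm. IFNG was at 0 in all 16 libraries, which allows at most 0.063 to 0.164 CPM.

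In siYAP against siCTRL over both lines 0 of the 25 genes rose and 3 fell, a share near the 13% of all genes, the RNA receptor TLR3 by 0.74 (SE 0.17), IFNGR1 by 0.42 (SE 0.11) and IFNAR1 by 0.37 (SE 0.09). By line, DHX58 rose by 0.97 (SE 0.25) and IFNAR1 fell by 0.54 (SE 0.13) in A431, and TLR3 fell by 1.02 (SE 0.23) and IFNGR1 by 0.69 (SE 0.15) in HaCaT. In YAP5SA against empty vector over both lines 0 passed with edgeR, where 2.04% of all genes did. By DESeq2, 2 passed, beside 1063 of 14673 genes. An unadjusted p under 0.05 in edgeR was found for 9, beside 3134 of 14673 genes. In A431 0 passed with either tool, where 0% of all genes did with edgeR. There 1 had an unadjusted p under 0.05 in edgeR, beside 828 of 14673 genes. In HaCaT 5 passed, where 13.6% of all genes did: the adaptors TICAM1 and TRAF3 rose by 1.45 (SE 0.28) and 0.47 (SE 0.14), and JAK2, IFNGR1 and IFNAR1 fell by 0.87 (SE 0.26), 0.60 (SE 0.15) and 0.59 (SE 0.13). The genes best known as targets of interferon gamma, a list of 11 of which 10 were tested, gave 2 rises in empty vector against siCTRL, where 29% of all genes passed, WARS by 1.86 (SE 0.32) and GBP1 by 1.51 (SE 0.22), and 3 falls in siYAP against siCTRL over both lines, where 13% did, GBP1 by 1.60 (SE 0.19), GBP4 by 0.93 (SE 0.21) and GBP3 by 0.65 (SE 0.16). GBP1, a GTPase, was in A431 at 108 CPM in siCTRL, 55.7, 62 and 55.8 CPM in siYAP, 116 CPM with empty vector and 130, 108 and 117 CPM with YAP5SA. HaCaT GBP1 was at 5.79 CPM in siCTRL, 1.08, 0.972 and 1.39 CPM in siYAP, 43.4 CPM with empty vector and 33.4, 55.3 and 55.8 CPM with YAP5SA. All 3 siYAP libraries of each line were below its siCTRL library. In YAP5SA against empty vector 0 genes of that list passed over both lines with edgeR or DESeq2. Of the list 1 had an unadjusted p under 0.05 in edgeR, beside 3134 of 14673 genes.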

How the data were processed

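RNA-seq libraries of both lines were analysed from a single table. The authors deposited estimated counts per gene from RSEM (1.2.11 per the submitters' processing notes; hg19), which divides reads shared by similar genes, so the IFIT, IFITM, OAS and SAMD9 families are less certain. Values were rounded. Filtering kept the 14673 genes whose mean exceeded 10 counts. One edgeR 4.0.16 model (R 4.3.3) of 8 groups used TMM factors and the quasi-likelihood test, with 8 residual degrees of freedom and Benjamini-Hochberg adjustment over all genes kept. A call needed an adjusted p under 0.05 and a logCPM above 1. Single libraries were compared with a prior count of 2 and no test. DESeq2 1.42.0, other scalings, filters, prior counts and controls, single lines, a replicate block and leaving out libraries were alternatives. Some list genes are not reported here. The code was tested on simulated data. Promoters were searched in Python 3.11.15. The study describes triplicates as biological, which the labels do not state, and p-values otherwise measure the spread between these libraries. Intervals and floors cover counting error only. The members, lists and tests were chosen with earlier results of these data known. Values in every library are given for members called within an arm (15), the 10 widest mean control differences, and 8 common markers and factors, 24 genes in all.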

Additional observations from a re-analysis of the deposited data

Results flagged for a closer look

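Results appear here because the effect of a contrast differed between the lines by a test of that difference. The siYAP effect on SAMD9 differed by -1.14 on the log2 scale (A431 minus HaCaT, edgeR). That call was kept in 6 of 17 alternative fits and lost in 11. The difference of YAP5SA minus siYAP differed between the lines for 44 of the 49 genes, where 40.2% of all genes did. That comparison was added after seeing the data, and its value was widest for IFI27 (-8.07), MX2 (-7.68) and IFI44L (-7.11). These values rest on few counts in HaCaT siYAP. IFI27 held 28, 12 and 3 counts there, MX2 12, 6 and 7, and IFI44L 19, 15 and 11. The groups hold 1 or 3 libraries, so no test for a single outlying library was made within them.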

How the results depend on the processing

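Counts are of the 49 genes passing the test, with the count over all genes tested in brackets, except for the ranges over left-out libraries. Against siCTRL, siYAP gave 10 (996) in A431 with each line fitted alone and 11 (2469) over both lines with DESeq2. With siCTRL and empty vector taken as 2 controls, siYAP gave 10 (1835) in A431, 45 (5870) in HaCaT and 42 (5769) over both lines, and YAP5SA 12 (78), 46 (4970) and 46 (4472), where the added library comes from the other arm. Under that choice the direction turned for siYAP in OAS1 in A431 (-0.05), in IRF9 (-0.56) and ISG20 (-0.25) in HaCaT and, over both lines, in IFI44L (-1.75), IFIH1 (-0.54), IFIT1 (-0.85), IRF9 (-0.27), ISG20 (-0.03) and MX2 (-1.75), and for YAP5SA in HaCaT in PARP9 (0.96) and SAMD9 (0.47). Against empty vector, YAP5SA gave 1 (3) in A431, 12 (2736) in HaCaT and 8 (1063) over both lines with DESeq2. It gave 3 (654) in HaCaT with each line alone and 1 (369) over both lines when every library needed more than 10 counts. The line difference of the siYAP effect gave 4 (280) with DESeq2, 0 (13) with RLE factors and 0 (28) with no count filter. That of the YAP5SA effect gave 5 (929) with DESeq2. The cause of these shifts was not tested. Leaving out 1 treated library at a time gave 2 to 9, 2 to 5 and 5 to 11 for siYAP (A431, HaCaT, both), 0 to 2, 4 to 13 and 0 to 10 for YAP5SA, 0 to 2 and 0 to 5 for the line differences of these effects, 35 to 43 in A431 and 48 to 48 in HaCaT for YAP5SA minus siYAP, and 45 to 47 for empty vector minus siCTRL. In each of these comparisons the count over all genes tested also differed between the fits that left out a library. The ranges alone therefore do not show a shift particular to the members. Replicate numbers were not shown to pair the samples (correlations of same-numbered deviations -0.028 to 0.124). With the replicate block YAP5SA minus siYAP gave 41 (4816) in A431 and 48 (8692) in HaCaT. Of the values for single named genes, 612 kept direction and side of the threshold, 87 lost the call and 11 turned. Each control is 1 library, assumed to vary like the triplicates.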
